A study of Mus musculus with 61 samples.

Results

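The ribosomal protein genes encode the proteins of the cytoplasmic ribosome. They were taken as every gene of the count table whose mouse symbol is Rpl or Rps followed by a number, with or without a final a or x, together with Rplp0, Rplp1 and Rplp2, and without the pseudogenes whose symbols end in -ps. The rule gave 75 genes of 46078 in the table, 29 of the small subunit and 46 of the large subunit, and all 75 were among the 24004 genes tested. No measured value was used to choose them, although they and the lists set beside them were chosen with earlier results of these data known.

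The libraries came from pancreatic ductal organoids of C57BL/6 mice, infected with doxycycline-inducible lentiviral vectors for GFP-Ngn3, LSSOrange-Pdx1 and tdTomato-MafA and sorted by fluorescence into pools of 50 cells after 8 days of induction. One set of cultures received wild-type Ngn3 (WT) and the other a form whose serine phosphorylation sites are mutated to alanine (6SA). Cells with Pdx1 (P), MafA (M), both (PM), Ngn3 with Pdx1 (NP), Ngn3 with MafA (NM) or all 3 factors (NPM) were sorted from each, so P, M and PM cells also came from cultures exposed to the Ngn3 vector and to doxycycline. Cells without any vector and cells with Ngn3 alone were not analysed here. The 12 conditions held 32 samples, 17 with and 15 without Ngn3, as 2 or 3 biological replicates, with replicates 1 and 2 at passage 2 (24 samples) and replicate 3 at passage 5 (8 samples). Passage 5 was therefore sampled through replicate 3 only, and passage and replicate cannot be told apart.

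Ribosomal proteins assemble with ribosomal RNA into the small subunit, which reads the mRNA, and the large subunit, which forms peptide bonds. Their mRNAs are short and abundant in most cells, and many begin with a pyrimidine tract through which growth signals control their translation. Many of the genes have processed pseudogenes, copies of their mRNA placed elsewhere in the genome, so that short reads from such a gene can match several places.

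The genes differ in how far their mRNA sequence is their own, and the sequences show both ends of that range. Each stretch below is the middle 50 bases, the length of a read, of the coding sequence in the GENCODE annotation of GRCm38, 5′ to 3′, and is in capitals where the same bases occur in the transcript of another gene. Rps3, a small-subunit protein at the mRNA entry (chr7:99477896-99483738, minus strand), is shown at bases 481 to 530 of its spliced mRNA. Rpl4, which lines the exit tunnel of the large subunit (chr9:64173375-64178666, plus strand), is shown at bases 684 to 733. Rpl24, a large-subunit protein at the contact between the subunits (chr16:55966275-55971435, plus strand), is shown at bases 394 to 443. Rpl23a, at the opening of the exit tunnel (chr11:78180932-78183584, minus strand), is shown at bases 276 to 325.
Rps3: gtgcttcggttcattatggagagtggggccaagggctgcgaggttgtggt
Rpl4: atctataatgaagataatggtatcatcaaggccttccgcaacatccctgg
Rpl24: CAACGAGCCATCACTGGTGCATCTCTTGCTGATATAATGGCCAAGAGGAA
Rpl23a: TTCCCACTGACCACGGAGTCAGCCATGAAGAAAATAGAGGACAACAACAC

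The stretches of Rps3 and Rpl4 were found in 0 other genes, that of Rpl24 in 3 and that of Rpl23a in 4. Over whole coding sequences, the share of 50-base windows found in another gene was 8.09% for Rps3, 8.73% for Rpl8 and 20.3% for Rpl4. It was 100% for 29 of the 75 genes. Of the 1360 other genes that held such a window, 1056 were annotated as pseudogenes. The class kept for reads with more than 1 match held 0 reads in every library, and how such reads were placed is not given in the sources used here.

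The start sites are shown because the pyrimidine tract lies there. RefSeq start sites on GRCm38.p6 were matched for 55 of the 75 genes, and each line holds 30 bases before and 20 bases after the start on the gene's strand, with CTTTC and any further C in capitals. Rpl15, a core large-subunit protein that was lower with Ngn3, is at chr14:18270967-18271016 on the minus strand. Rpl4 is at chr9:64173357-64173406 and Rpl13, a large-subunit protein that was higher at passage 5, is at chr8:123102320-123102369, both on the plus strand. Rps7, a small-subunit protein that was also higher at passage 5, is at chr12:28635934-28635983 on the minus strand.
Rpl15: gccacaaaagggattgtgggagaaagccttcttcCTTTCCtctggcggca
Rpl4: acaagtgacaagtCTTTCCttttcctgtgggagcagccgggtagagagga
Rpl13: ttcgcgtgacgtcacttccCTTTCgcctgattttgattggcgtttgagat
Rps7: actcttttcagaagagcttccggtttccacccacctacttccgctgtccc

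On the strand of the transcript, CTTTC stood in this window in 18 of the 55 genes (32.7%) and in 8.00% of all 27025 genes with a start site. CTTTCC, which always lies within a CTTTC match, stood in 10 of the 55 (18.2%) and in 2.88% of all. ACTTCCG, the core of sites for ETS factors, searched on both strands of the 300 bases around the start, stood in 19 of the 55 (34.5%) and in 7.20% of all. Rpl15, Rpl4 and Rpl13 hold CTTTC at different distances from the annotated start, and the letters are not in the window of Rps7.

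The labels were checked first. Neurog3, the gene of Ngn3, was at 7.87 to 329 CPM (the count over 1e6 counts of the library size after TMM scaling, median 62.6) in the 17 samples with Ngn3 and at 0 to 0.788 CPM in the 15 without. The duct keratin Krt19 was at 567 to 1524 CPM in the samples without Ngn3. Pdx1 overlapped between P (11.2 to 37.7 CPM) and M cells (4.22 to 19.3). It also overlapped between NP (9.84 to 48.4 CPM) and NM cells (3.21 to 30.6). Mafa was at 0.107 to 3.16 CPM in M, 0 to 4.21 in PM (median 0.389) and 0 to 0.0902 in P cells. The values thus check the Ngn3 label, while the Pdx1 label and the MafA label of PM cells rest on the sorting. Of 61 libraries, 58 passed the minimum of 1000000 counts on genes, and these held 1373561 to 9736403 counts (median 5610125). The 3 libraries left out were an NPM repeat of WT replicate 2 (625650 counts), an NPM repeat of 6SA replicate 2 (241563) and the NPM library of 6SA replicate 3 (408733), which carried 1.40%, 1.30% and 2.44% of their counts on ribosomal protein genes. One kept sample stood apart, 6SA NPM replicate 2, a single library of 9736403 counts in which 1.85% of gene counts were mitochondrially encoded and 27.8% of reads fell on no annotated gene. Replicates came from cultures that the labels number but do not otherwise describe, so p-values measure the spread between these samples. A pool of 50 cells cannot tell fewer transcripts per cell from fewer cells with the transcript.

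Per kilobase of annotated exon, the 75 genes ran over a 546-fold range of levels. The mean level was 857 ± 334 CPM per kb (SD, n = 32 samples) for Rpl4 and 597 ± 323 for Rpl8, a protein near the catalytic centre. The stalk proteins Rplp1 and Rplp0, through which elongation factors are recruited, followed with 573 ± 388 and 538 ± 285 CPM per kb. These neighbours lie within 1 SD of each other. The genes share the same libraries, so this spread does not measure how firm their order is, and the order was not tested. The lowest mean levels were 1.57 ± 0.728 CPM per kb for Rpl24, 1.94 ± 1.17 for Rps28, 2.01 ± 1.18 for Rps25 and for Rpl35, and 2.59 ± 1.55 for Rps12. All 75 genes were detected in all 32 samples, and the lowest count of Rpl24 in a sample was 2. The 5 genes with the highest CPM held 55.0% of the CPM summed over the 75.

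The level was lower where other genes hold more of the coding sequence. The 4 genes with under 25% shared windows had a median of 683 CPM per kb, the 6 with 25 to 50% had 160, the 6 with 50 to 75% had 98.8 and the 59 with 75 to 100% had 14.3. The first 4 genes carried 47.0% of the CPM of the 75 and the last 59 carried 27.1%. Across the 75 genes Spearman's rho between shared windows and CPM per kb was -0.739, and -0.789 with the level taken per kb of coding sequence. The genes share the same libraries, and this is a description. Levels of Rpl24, Rps28, Rpl23a and other genes whose windows are shared are uncertain for this reason, since their reads may be split with the copies.

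**Figure D1:**
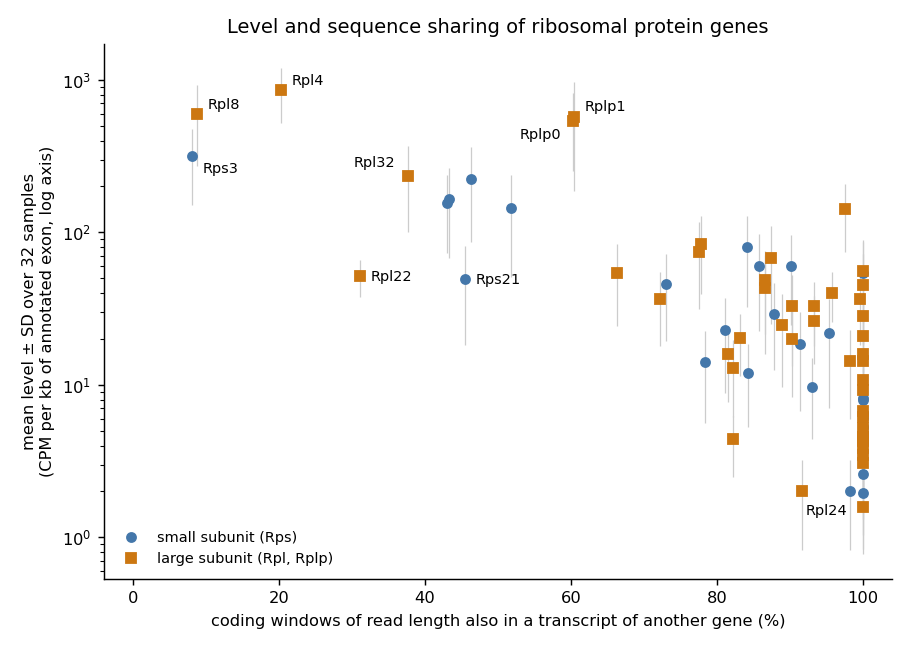
Level of 74 of the 75 ribosomal protein genes (vertical log axis, mean CPM per kb of annotated exon with the SD over 32 samples as a bar) against the percentage of its 50-base coding windows found in another gene's transcript, with circles for the small and squares for the large subunit. Rps3, Rpl8 and Rpl4 sit at the upper left with 8.09% to 20.3% shared windows and Rpl24 at the lower right with 100%.

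As a share of all gene counts, the ribosomal protein genes were at 0.253% to 2.20% in the 32 samples. In replicate 1 the share ran from 0.409% to 1.05% (median 0.878%, n = 12), in replicate 2 from 0.253% to 1.45% (median 0.952%, n = 12) and in replicate 3 from 1.36% to 2.20% (median 1.55%, n = 8). Only 6SA PM replicate 2 and WT P replicate 2 reached into the range of replicate 3. Replicate 3 was the highest in 7 of the 8 conditions that have one. The mean was 0.899% ± 0.280 (SD, n = 24) at passage 2 and 1.65% ± 0.309 (n = 8) at passage 5.

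The conditions overlapped in their shares. For WT NP it was 0.775%, 1.20% and 1.53% in replicates 1 to 3, for WT NM 0.882%, 0.805% and 1.40%, and for WT NPM 0.961%, 0.678% and 1.58%. WT PM without Ngn3 gave 0.878%, 1.22% and 1.505%, and each of these groups overlapped the others. In the 6SA cultures NP gave 0.409%, 0.964% and 2.07%, NM 0.877%, 0.859% and 1.59%, and NPM 0.890% and 0.253% in replicates 1 and 2. The corresponding PM samples gave 0.561%, 1.41% and 1.36% and the M samples 0.675%, 0.920% and 2.20%. The lowest share of all samples, 0.253%, was that of the library that stood apart. P cells had 1.04% and 1.45% in WT and 0.722% and 1.14% in 6SA cultures, and WT M cells had 1.05% and 0.940%.

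Over the condition means, the share was 1.02% with Ngn3 and 1.13% without, a difference of -0.11 percentage points, smaller than the SD of 0.463 over the 17 samples with Ngn3 or 0.412 over the 15 without. Without replicate 2 the difference was 0.087 points, with the direction turned, and without 6SA NPM replicate 2 alone it was -0.056. With the 3 libraries of low counts, all NPM, included it was -0.00033 points, with means of 1.12% and 1.13%. With samples paired by replicate number, the mean difference over 14 pairs was -0.215 points, also smaller than its SD of 0.376. The share was lower with Ngn3 in 10 of these pairs. Technical repeats of 1 sample differed with an SD of 0.326 points over 17 samples that have repeats, against 0.503 between replicates. The widest range between repeats was 0.638% to 2.03%, in 6SA NM replicate 2.

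**Figure D2:**
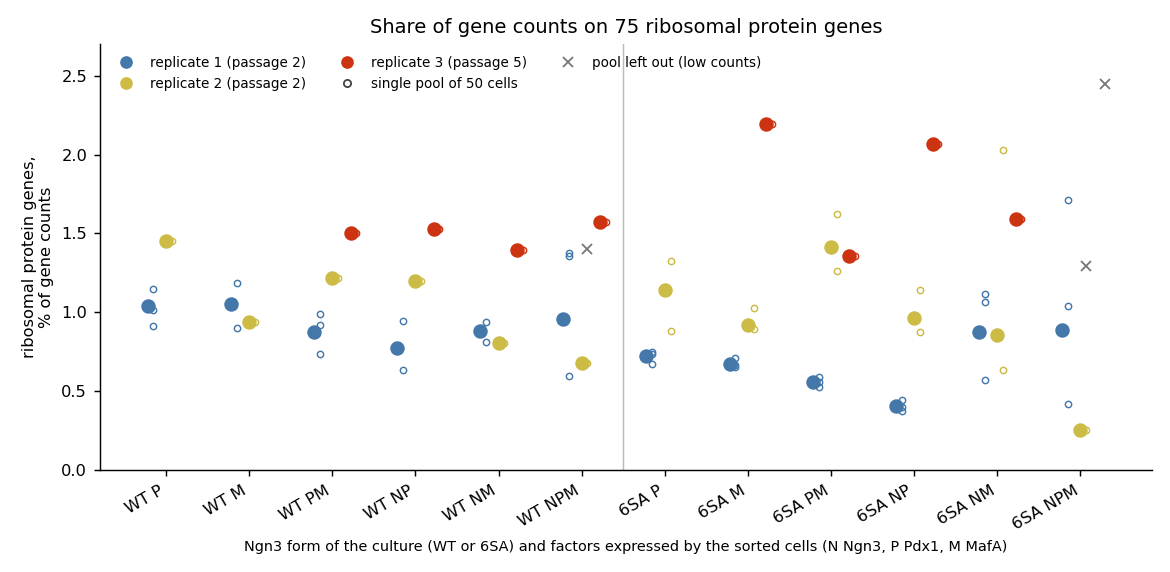
Share of gene counts on the 75 ribosomal protein genes in each of the 32 samples, by condition (vertical axis in percent of gene counts). Filled points are samples, coloured by replicate, small open points are the single pools behind them and crosses the 3 pools left out. The 8 points of replicate 3 lie between 1.36% and 2.20%, and samples with Ngn3 overlap those without in both kinds of culture.

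Other quantities moved with the replicate. Mitochondrially encoded genes took 3.38% to 8.30% of gene counts in replicate 1 (median 5.15%), 1.85% to 12.5% in replicate 2 (median 8.67%) and 8.76% to 14.4% in replicate 3 (median 10.4%). Reads that overlapped several genes made up 4.24% to 7.62% in replicate 1, 3.44% to 13.3% in replicate 2 and 8.29% to 11.3% in replicate 3. Counts on ribosomal protein genes per spike-in count had medians of 8.13, 10.6 and 15.2 in replicates 1, 2 and 3, with a range of 5.52 to 18.9 in replicate 3 that overlapped both others. The part of these quantities in the share was not tested.

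The first comparison asked what Ngn3 did to these genes beside Pdx1 and MafA. Rpl15 and Rpl3, a protein next to the peptidyl transferase centre, were lower with Ngn3, and none of the 75 was higher by the edgeR quasi-likelihood test. Rpl15 ran from 33.9 to 93.6 CPM (median 55.7) in the 17 samples with Ngn3 and from 46.7 to 114 CPM (median 75.6) in the 15 without, so the groups overlapped. Its log2 fold change was -0.55 (SE 0.147, edgeR adjusted p = 0.00694). Rpl3 fell by 0.49 on the log2 scale (SE 0.159, edgeR adjusted p = 0.0245). Rplp0, with -0.62 (SE 0.258, edgeR adjusted p = 0.0899), had the next lowest p and did not pass. Other genes hold 100% of the coding windows of Rpl15 and 95.7% of those of Rpl3, so their reads may be split with copies. Both called genes lie in the class with 75 to 100% shared windows. The median log2 fold change was -0.24 in that class and -0.36 in genes with under 25%.

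These 2 of 75 genes (2.67%) stand beside 21.5% of all genes tested that were called in either direction. The median log2 fold change of the 75 was -0.28, against 0.07 over all genes tested, and 66 of the 75 were negative. With plain library totals these medians were -0.06 and 0.28, and 0 of the 75 were called. At an unadjusted p under 0.05 edgeR had 6 lower and 0 higher, and DESeq2 called 2. Without replicate 3, within passage 2, 7 were lower, 21 without replicate 1 and 0 without replicate 2. With the replicate number as a block, 12 of the 75 were lower and 0 higher. Leaving out one sample gave 1 called gene without 6SA M replicate 3, 6SA NPM replicate 2 or WT M replicate 1, 4 without 6SA NP replicate 3 and 5 without 6SA NPM replicate 1.

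When Ngn3 was added to Pdx1 and MafA together, Rpl15, Rpl3 and Rpl4 were lower and none of the 75 was higher by edgeR. Rpl15 was at 40.1, 54.0 and 62.6 CPM in WT NPM and at 37.4 and 33.9 CPM in 6SA NPM, and at 70.6, 114 and 73.3 CPM in WT PM and 59.4, 90.2 and 94.2 CPM in 6SA PM. All NPM samples but WT replicate 3 were below all PM samples. The log2 fold change was -0.95 (SE 0.256, edgeR adjusted p = 0.0101). Rpl3 was at 70.2, 64.4 and 112 CPM in WT NPM and 84.0 and 54.6 CPM in 6SA NPM, against 118 to 166 CPM (median 140.5) in the 6 PM samples. No NPM sample of Rpl3 reached the PM range, and the gene fell by 0.90 on the log2 scale (SE 0.277, edgeR adjusted p = 0.0237). Rpl4 was at 738, 920 and 1839 CPM in WT NPM and 886 and 534 CPM in 6SA NPM, against 1358 to 2423 CPM (median 2089) in the PM samples. WT NPM replicate 3 lay within that range and the other NPM samples below it, with a log2 fold change of -1.09 (SE 0.353, edgeR adjusted p = 0.0309). Rplp0 had -1.27 (edgeR adjusted p = 0.0523) and did not pass.

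These were 3 of 75 genes (4%), beside 17.8% of all genes tested. The median over the 75 was -0.57 against 0.05 over all genes, 65 were negative, edgeR had 10 lower at an unadjusted p under 0.05 and DESeq2 called 5. The small subunit had a median of -0.68 over 29 genes and the large subunit -0.49 over 46. The count was 41 without replicate 1, 0 without replicate 2 and 6 without replicate 3, and a replicate block gave 6, all lower, with a median of -0.27. It was 1 without any one of 6SA NPM replicate 2, 6SA PM replicates 2 or 3, WT NPM replicates 1 or 2, or WT PM replicate 2, and 8 without 6SA NPM replicate 1. With the 3 libraries of low counts included the median was 0.06, with the direction turned, and with plain library totals or spike-in totals 0 of the 75 were called.

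Ngn3 added to Pdx1 alone changed none of the 75 by edgeR (0 at an unadjusted p under 0.05, 0 by DESeq2), beside 1.49% of all genes, and their median log2 fold change was 0.00 against 0.07. The lowest p-values belonged to Rpl15, Rpl10 and Rpl36. Ngn3 added to MafA alone also changed none by edgeR (0 at an unadjusted p under 0.05, 0 by DESeq2), beside 4.67% of all genes, with a median of -0.33 against 0.03 and 67 of 75 negative. Rpl9, Rpl3 and Rps2 had the lowest p-values. With the replicate number as a block, 1 of the 75 was called for Ngn3 added to MafA. Both comparisons and the one before it are parts of the overall comparison with Ngn3, and whether their effects on these genes differ was not tested.

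MafA added to Ngn3 and Pdx1 gave 0 called genes by edgeR, 6 lower at an unadjusted p under 0.05 and 0 by DESeq2, beside 1.88% of all genes. The lowest p was that of Rpl4, with a log2 fold change of -0.95 (SE 0.351, edgeR adjusted p = 0.178), and the median over the 75 was -0.48 against -0.01. Pdx1 added to Ngn3 and MafA gave 0 by edgeR, 3 lower at an unadjusted p under 0.05 and 0 by DESeq2, beside 2.72% of all genes, with -0.98 for Rpl4 (edgeR adjusted p = 0.122) and a median of -0.26 against 0.03. Rpl3 and Rpl15 followed Rpl4 in the first of these and Rpl3 and Rplp0 in the second. The NPM samples are common to both and to the comparison with PM. With the replicate number as a block, 1 of the 75 was called for Pdx1 added to Ngn3 and MafA. Without replicate 1, 36 genes were called in the first and 5 in the second, and without WT NPM replicate 3 the second had 1.

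Pdx1 against MafA without Ngn3 gave 0 called of the 75 by edgeR (0 at an unadjusted p under 0.05, 0 by DESeq2), beside 0% of all genes, of which 675 had an unadjusted p under 0.05 and DESeq2 called 24. The 6SA form against wild-type Ngn3, the contrast that asks what the phosphorylation sites do, gave 0 of the 75 by edgeR (0 at an unadjusted p under 0.05, 0 by DESeq2), beside 0% of all genes, with 1421 at an unadjusted p under 0.05 and 26 called by DESeq2. Its median over the 75 was -0.21 against 0.08 over all genes, with a median SE of 0.42 for a single gene, so a change of that size in one gene was not detectable. Between 6SA and WT cultures without Ngn3, 0 of the 75 were called by edgeR (0 at an unadjusted p under 0.05, 0 by DESeq2), beside 0% of all genes (591 at an unadjusted p under 0.05, 8 by DESeq2), and the median was -0.02. The interaction of culture and Ngn3, the test of whether the effect of Ngn3 differed between the 2 forms, gave 0 of the 75 by edgeR (0 at an unadjusted p under 0.05, 0 by DESeq2), beside 0% of all genes (647 at an unadjusted p under 0.05, 5 by DESeq2), with a median of -0.18.

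The comparison of passage 5 with passage 2, fitted with the condition as a covariate, called most of the 75 genes. All 8 samples of passage 5 carry replicate number 3, and the fit treats them as independent. Its p-values therefore compare replicate 3 with the other replicates and cannot test passage itself. Of the 75 genes, 42 were higher and 0 lower (56%), beside 8.23% of all genes called in either direction and 3.15% called higher. The median log2 fold change was 1.01 (quartiles 0.59 and 1.20) against -0.26 over all genes, and 71 of 75 were positive. At an unadjusted p under 0.05 edgeR had 56 higher, and DESeq2 called 50. Of the small subunit 20 of 29 genes were higher (median 1.11) and of the large subunit 22 of 46 (median 0.87). The lowest adjusted p was that of Rpl10a (log2 fold change 1.19, SE 0.185, edgeR adjusted p = 0.000693).

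The largest increases past the threshold included those of Rpl23a, Rps7, Rpl13 and Rps16. Rps7 ran from 9.52 to 41.8 CPM, from 8.07 to 64.2 and from 47.3 to 157 in replicates 1 to 3, with medians of 28.7, 33.6 and 66.9. Replicate 3 lay above all of replicate 1 and overlapped replicate 2. Rps7 rose by 1.42 (SE 0.276, edgeR adjusted p = 0.00329). Rpl13 had medians of 21.01, 32.5 and 60.7 CPM, the lowest replicate 3 sample at 46.6 CPM and the highest of replicate 2 at 47.1 CPM, and rose by 1.39 (SE 0.256, edgeR adjusted p = 0.00227). Rps16, which touches the tRNA in the peptidyl site, had medians of 34.3, 55.3 and 107 CPM and rose by 1.38 (SE 0.307, edgeR adjusted p = 0.00759). Rpl23a, at the opening of the exit tunnel, had medians of 1.83, 2.18 and 5.32 CPM from few reads and rose by 1.44 (SE 0.404, edgeR adjusted p = 0.0271).

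Of the stalk, Rplp0 rose by 1.01 (SE 0.235, edgeR adjusted p = 0.0100) and Rplp1 by 1.27 (SE 0.359, edgeR adjusted p = 0.0284), and Rplp2 had 0.88 with an edgeR adjusted p of 0.104. The 5S RNA partners Rpl5 and Rpl11, which also bind Mdm2, had 0.53 and 0.77 with edgeR adjusted p of 0.162 and 0.0507, and neither passed. Rps6, the substrate of the S6 kinases, had medians of 4.61, 8.72 and 13.9 CPM in replicates 1, 2 and 3 and was higher at passage 5 (log2 fold change 1.23, SE 0.305, edgeR adjusted p = 0.0148). Rps27a, made as a fusion with ubiquitin, had 0.73 with an edgeR adjusted p of 0.0982.

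Among the others chosen by role, Rpl3 rose by 0.53 (edgeR adjusted p = 0.0382), Rps4x, the X-linked form of S4, by 1.07 (edgeR adjusted p = 0.00844) and Rps19, mutated in Diamond-Blackfan anaemia, by 1.16 (edgeR adjusted p = 0.0225). Rpl10, a late-joining protein of the large subunit, had 0.09, the RNA-binding protein Rpl22 had 0.43, and the small proteins Rpl38, Rpl39 and Rpl41 had 0.29, 0.57 and 0.54, and none of these passed. The 4 genes with a negative value were Rps28 (-0.59), Rps29 (-0.34), Rpl9 (-0.26) and Rpl15 (-0.06), and none passed. Rpl15, called lower with Ngn3, ran from 46.7 to 94.2 CPM in replicate 3 (median 63.5), inside the range of 33.9 to 114 CPM in replicate 2.

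**Figure D3:**
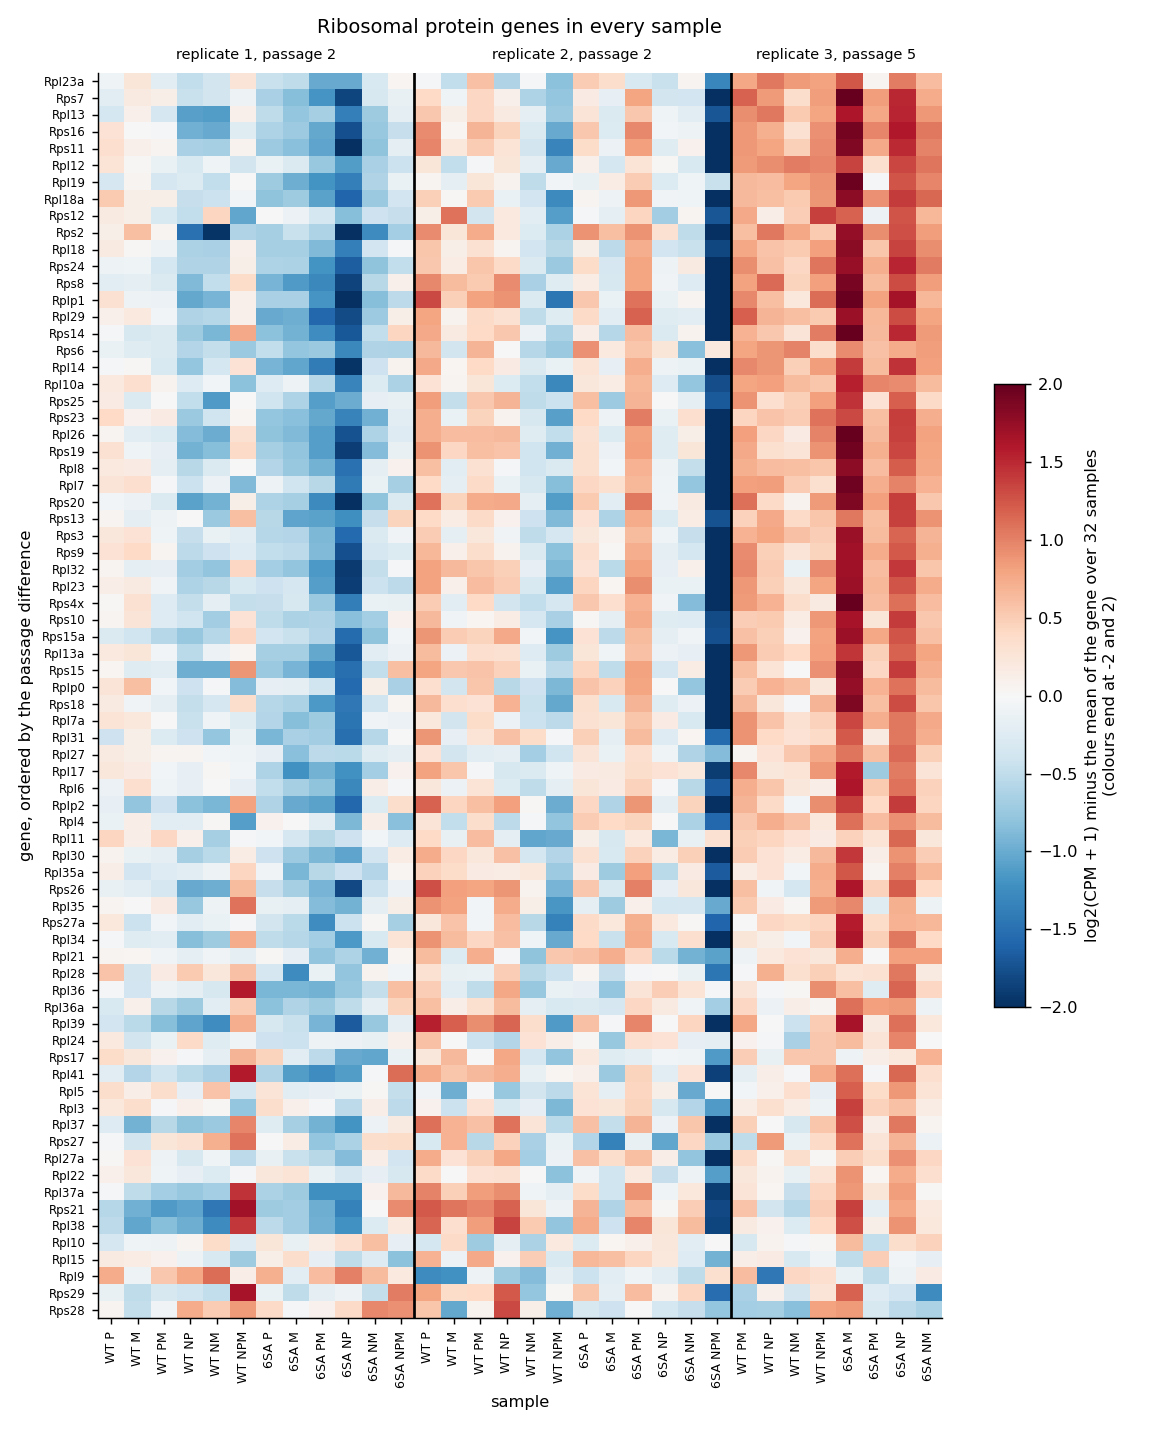
Expression of 74 of the 75 ribosomal protein genes in the 32 samples. Each cell is the log2(CPM + 1) of a gene in a sample minus the mean of that gene over all samples (colours end at -2 and 2), genes in rows and samples in columns grouped by replicate. Most rows are highest in the 8 samples of replicate 3, and 6SA NPM replicate 2 is low in most rows.

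Set against each of the other replicates, replicate 3 was higher. Against replicate 1, 52 of the 75 were higher and 0 lower, beside 24.0% of all genes called and 8.3% called higher, with a median of 1.20 against -0.35. Against replicate 2, 26 were higher and 0 lower, beside 4.86% called and 2.09% called higher, with a median of 0.86 against -0.08. Within passage 2, replicate 2 against replicate 1 had 5 higher (Rps2, Rps6, Rps20, Rpl38 and Rpl39) and 1 lower (Rpl9), beside 17.6% of all genes, with a median of 0.32 against -0.25. These contrasts were added after the values were seen and share the samples of each replicate. The passage count was 17 without 6SA NP replicate 3, 22 without 6SA M replicate 3, 24 without replicate 1 and 54 without replicate 2. With spike-in totals as library sizes it was 0, with a median over the 75 of 0.67 and over all genes of -0.52, and the other scalings moved the median of all genes to between -0.38 and -0.18.

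**Figure D4:**
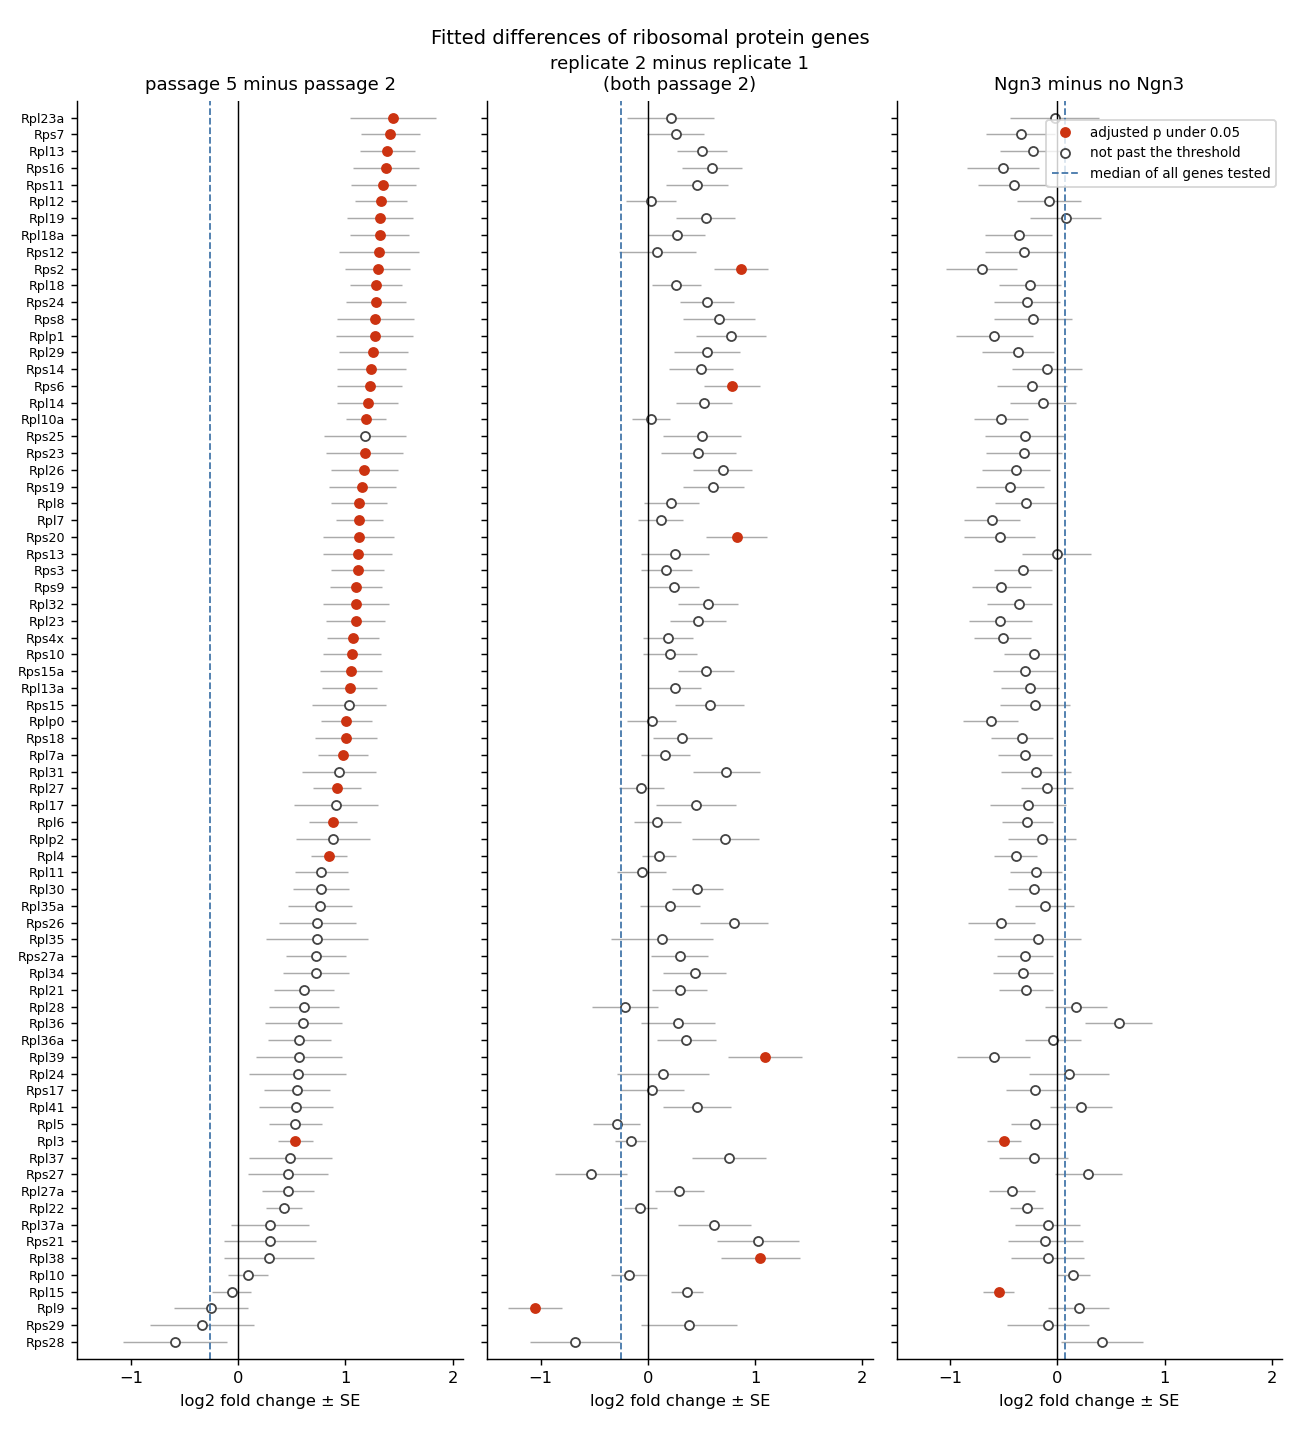
Log2 fold change and standard error of 74 of the 75 ribosomal protein genes for passage 5 against passage 2, replicate 2 against replicate 1 and Ngn3 against no Ngn3, filled where the edgeR adjusted p is under 0.05, with the dashed line at the median of all genes tested. Filled points number 41 in the first panel, 6 in the second and 2 in the third, and 70 of the 74 points of the first panel lie above 0.

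Genes with few and genes with many shared windows were both higher at passage 5. Of the genes with under 25% shared windows, among them Rps3, Rpl8 and Rpl4, 4 of 4 were higher with a median of 1.12, and of those with 75 to 100% shared windows 32 of 59 were higher with a median of 0.98. Spearman's rho over the 75 genes was -0.212 between shared windows and the passage change and 0.245 between level and passage change. As the genes share the same libraries, these are descriptions. Rps3 rose by 1.11 (SE 0.243), Rpl8 by 1.13 (SE 0.262) and Rpl4 by 0.85 (SE 0.170), with edgeR adjusted p of 0.00678, 0.00987 and 0.00380.

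Other genes with short mRNAs had positive medians at passage 5. Among other genes over 10 CPM with a spliced length under 1 kb, the median log2 fold change was 0.66 and 24.3% were called higher, and between 1 and 2 kb it was 0.27 with 12.8%. Between 2 and 4 kb it was -0.18 with 3.43%, and from 4 kb -0.24 with 1.27%. The 48 ribosomal protein genes under 1 kb had a median of 0.95 with 24 higher, the 22 between 1 and 2 kb 1.07 with 15 higher, and the 4 between 2 and 4 kb 0.83 with 2 higher. In each of these 3 classes the median of the ribosomal protein genes was above that of the other genes, in the last from 4 genes. The part of mRNA length in the passage result was not tested.

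Genes around the ribosome were taken from lists, whose counts at passage 5 stand beside 8.23% of all genes called in either direction and 3.15% called higher. At passage 5, 5 of 11 further ribosomal proteins outside the naming rule were higher and 0 lower (median 0.87), among them Rpsa (1.22), Fau (1.12) and the scaffold Rack1 (1.02). Of 39 genes listed as translation factors, a list that also holds Tpt1 and Npm1, 19 were higher and 0 lower (median 0.59). The largest values were those of the elongation factor Eef1b2 (1.45), Tpt1 (1.44) and Npm1 (1.16). Of 40 ribosome biogenesis genes 12 were higher and 0 lower (median 0.42), with Nhp2 (1.32), Nip7 (0.94) and Nop16 (0.93) the largest. Of 82 genes listed as mitochondrial ribosomal proteins, which include the pseudogene Mrpl23-ps1, 27 were higher and 0 lower (median 0.65). Of 202 ribosomal protein pseudogenes 26 were higher and 0 lower (median 0.96), and reads of a pseudogene may be split with its parent gene where their sequences are the same.

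Of 24 regulators of these genes, Eif4ebp1, the repressor of cap-dependent translation that mTOR inactivates, rose by 2.23 (edgeR adjusted p = 3.56e-05) and Myc, an activator of ribosome production, by 1.29 (SE 0.290, edgeR adjusted p = 0.00813), while Mxd4, a repressor at Myc sites, fell by 0.75. Myc ran from 13.9 to 317 CPM in replicate 1 (median 188), from 12.3 to 313 in replicate 2 (median 187) and from 209 to 476 in replicate 3 (median 284). Of 30 mitochondrially encoded genes 3 were higher and 0 lower (median 0.49). Of 22 endocrine markers 0 were higher and 11 lower at passage 5, and of 18 proliferation genes 2 were lower. The highest Neurog3 level in a sample was 226 CPM in replicate 1, 329 in replicate 2 and 38.8 in replicate 3. For Pdx1 these values were 164, 191 and 30.8 CPM, and for Mafa 3.87, 12.7 and 4.21 CPM. The part of these factor levels in the endocrine values was not tested. No duct, acinar or blood cell marker was called, and 2 of 7 mesenchyme and endothelium genes were lower.

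With Ngn3, 2510 of the 24004 genes tested were lower, and 21.5% were called in either direction. Of the 40 biogenesis genes 13 were lower and 0 higher (median -0.48), with the largest falls in Polr1b (-0.84), a subunit of RNA polymerase I, Dkc1 (-0.83) and Nle1 (-0.81). Of the 39 genes listed as translation factors 6 were lower and 0 higher (median -0.25), with Npm1 at -0.81, Eef1a1 at -0.61 and Eif3e at -0.59. Of the 11 further ribosomal proteins Rpl22l1 (-0.67) and Rpl7l1 (-0.45) were lower. Mrps2 (-0.56) was the 1 gene called among the 82 mitochondrial ribosomal proteins, and 3 of the 202 pseudogenes were higher and 2 lower.

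Among the regulators Mycl (1.28), Mxd4 (0.65) and Rptor (0.64) were higher with Ngn3, and Mycn (-2.07), Myc (-1.38, SE 0.311, edgeR adjusted p = 0.00158) and Trp53 (-0.67) were lower. Proliferation genes were lower in 18 of 18 cases (median -2.77), duct markers in 11 of 16 (median -1.53), and endocrine markers were higher in 19 of 22 (median 9.20). The part of these cell states in the values of Rpl15 and Rpl3 was not tested. With Ngn3 added to Pdx1 and MafA, 16 of the 40 biogenesis genes were lower (median -0.95) and 7 of the 39 translation factors (median -0.58), with 0 higher in both lists, beside 17.8% of all genes called and 2017 of 24004 lower.

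Markers of other cell types were few. Over all samples the 15 acinar genes summed to 0.617 to 49.7 CPM and the 10 blood cell genes to 1.01 to 44.3 CPM, against 5653 to 143209 CPM for the 16 duct markers. The 11 mesenchyme and endothelium genes reached 298 CPM in 1 sample of replicate 1 with Ngn3 and at most 14.8 CPM in replicate 3. At passage 5, 9 of the 15 acinar genes, 6 of the 10 blood cell genes and 4 of the 11 mesenchyme and endothelium genes had no count in any sample.

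**Figure D5:**
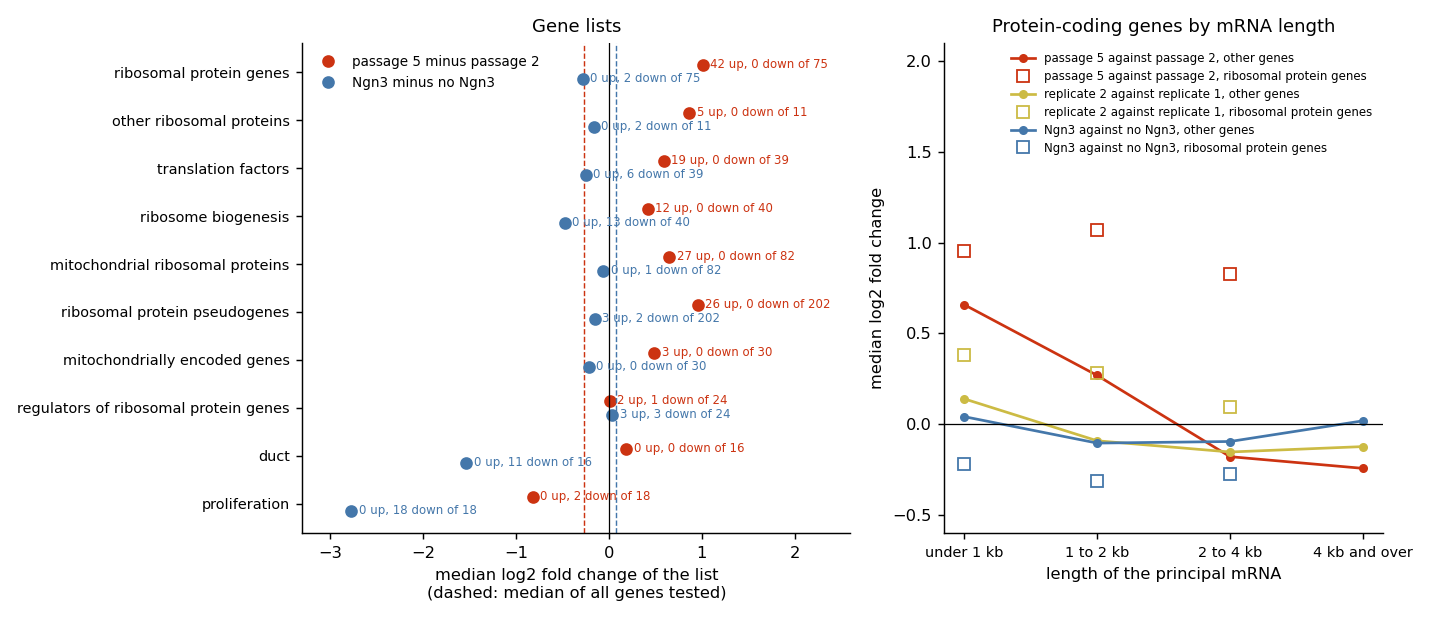
Ribosomal protein genes beside other lists and by mRNA length. The left panel gives the median log2 fold change of each list with Ngn3 and at passage 5, with the counts called beside each point, and the right panel gives the median by class of mRNA length, as squares for ribosomal protein genes and lines for other genes over 10 CPM, at passage 5, in replicate 2 against replicate 1 and with Ngn3. At passage 5 the medians are 1.01 for the 75 genes, 0.59 for translation factors and 0.42 for biogenesis genes, and the other genes run from 0.66 under 1 kb to -0.24 from 4 kb.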

How the data were processed

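RNA from pools of 50 sorted cells was amplified and sequenced by the Smart-seq2 and Nextera XT protocols, whose kit does not mark strand, so that reads of a gene and of an overlapping or antisense partner cannot be told apart. Per the submitters' processing notes, reads were aligned to mm10 with GSNAP 2015-09-29 and assigned to Ensembl genes with HTSeq 0.5.3p3. The authors deposited raw counts per gene and library, without normalization, with technical repeats separate. Symbols were found for 45229 of 46078 genes, and the 5 summary rows of HTSeq stayed out of totals and tests.

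Libraries with over 1000000 counts on genes were kept (58 of 61), technical repeats were summed, and a gene was tested when 5 or more libraries had a count of it and its log2(CPM + 1) varied by over 0.001 (variance). Differences were computed from the counts with edgeR 4.0.16 in R 4.3.3 (TMM, quasi-likelihood F test in 1 model of all 12 conditions, Benjamini-Hochberg over 24004 genes), with an adjusted p under 0.05 called. For passage, the passage was added to the condition. The alternatives were DESeq2 1.42.0, RLE factors, plain and spike-in totals, filterByExpr, no gene filter, legacy=FALSE, only the conditions compared, a replicate block, all libraries, the first repeat only, and leaving out each replicate number and each sample. Contrasts between replicates, and the share without 6SA NPM replicate 2, were added after seeing the data. Models were tested on simulated data.

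The members and lists were chosen with earlier results of these data known. Genes were named by a rule: the 5 largest called changes in each direction, or the 3 lowest p where fewer than 3 passed, the 5 highest and 5 lowest levels, genes chosen by role, and the 3 largest called changes in each direction of each list. Rpl10a, the negative values at passage 5, Rps3, Rpl8 and Rpl4 there, and replicate 2 calls were named after their values were seen. Levels between genes are CPM per kb of annotated exon. Intervals and errors cover counting error and the spread between samples only, and PCR reads are not independent molecules. The lowest chi-square per gene between replicates was 32.0, and 0 pairs of samples were identical. One of the 75 genes entered all counts, medians and shares but its own values are not reported here.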

Additional observations from a re-analysis of the deposited data

How the results depend on the processing

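The number of ribosomal protein genes called with Ngn3 (2) was 1 with RLE factors, 0 with plain totals and with spike-in totals, 5 without a gene filter and 4 with the first repeat only. For Ngn3 added to Pdx1 and MafA (3) it was 0 with plain totals and with spike-in totals, 5 with DESeq2 and with legacy=FALSE, 10 without a gene filter, 6 with all libraries (2 higher and 4 lower), 7 with the first repeat only and 6 with only the conditions compared. At passage 5 (42) it was 0 with spike-in totals, and the contrast of replicate 3 with replicate 2 gave 26 and of replicate 2 with replicate 1 gave 6. The median for Pdx1 against MafA was 0.73 with spike-in totals, and the difference in share as a log2 ratio to spike-in counts was -0.56. The cause of these changes was not tested.

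Replicate numbers are shared between conditions. Same-numbered samples deviated together with r from -0.55 to 0.90 (160 pairs, median 0.42), of which 136 were over 0.1, against a median of -0.25 for other numbers, and 27 of 32 samples correlated best with a sample of their own number. The labels tie each number to a passage and each sample to a WT or 6SA culture, but do not say which samples came from 1 culture, so pairing was not settled and both fits are given. With the number as a replicate block, 12 genes were called with Ngn3, 6 for Ngn3 added to Pdx1 and MafA, 1 for Ngn3 added to MafA and 1 for Pdx1 added to Ngn3 and MafA, and the mean difference in share over 14 pairs was -0.215 percentage points (SD 0.376), lower with Ngn3 in 10. For passage no block could be fitted, because each number belongs to 1 passage.

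Leaving out a replicate number or a sample, the latter with the dispersion trend of the full fit, gave 0 to 21 called with Ngn3 (median -0.57 to 0.09), 0 to 41 for Ngn3 added to Pdx1 and MafA (-1.53 to 0.029), 0 to 36 for MafA added (-1.59 to -0.048), 0 to 5 for Pdx1 added (-1.16 to 0.042) and 17 to 54 at passage 5 (0.76 to 1.30). The count was 0 to 0 for Ngn3 added to Pdx1 (-0.47 to 0.46), Ngn3 added to MafA (-0.52 to 0.16), Pdx1 against MafA (-0.65 to 0.37), 6SA against WT with Ngn3 (-0.69 to 0.05) and without (-0.38 to 0.13) and the interaction (-0.75 to 0.12). The difference in share ran from -0.21 to 0.087. Among 45 settings, Rpl15 stayed lower and called with Ngn3 in 40 and Rpl3 in 36. Low counts limit the precision of Rpl24, Rps28, Rps25, Rpl35 and Rpl23a. The counts of the other lists also moved. With Ngn3, 0 to 27 biogenesis genes and 0 to 15 translation factors were lower over 45 settings. With Ngn3 added to Pdx1 and MafA these were 0 to 26 and 0 to 16 over 46. At passage 5, 0 to 16 biogenesis genes and 0 to 22 translation factors were higher over 43 settings. There 0 to 40 mitochondrial ribosomal proteins and 0 to 44 ribosomal protein pseudogenes were higher.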

Other observations

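Ribosomal protein genes with short coding sequences and those with long ones had different medians in several comparisons. The grouping was chosen after the values were seen, and the values are a description. Of 16 genes with under 350 coding bases, which include Rpl41, Rpl39, Rpl38, Rps28, Rps29 and the stalk proteins Rplp1 and Rplp2, 1 was higher at passage 5, with a median log2 fold change of 0.56. Of 31 genes with 350 to 500 coding bases 19 were higher (median 1.10), and of 28 genes with 500 or more 22 were higher (median 1.11). In replicate 2 against replicate 1 the medians of the 3 groups were 0.54, 0.44 and 0.23, so that the short genes stood highest there.

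With Ngn3 added to Pdx1 and MafA the medians were -0.17 for the short genes, -0.57 for the middle group and -0.70 for the long genes, where Rpl3, Rpl4 and Rpl15 lie. Over the 32 samples, the median deviation of the short genes from their means minus that of the long genes ran from -0.67 in WT NM replicate 3 to 1.15 in WT NPM replicate 1 on the log2 scale. In the other NPM samples it was 0.040 and 0.12 in WT replicates 2 and 3, and 0.54 and 0.13 in 6SA replicates 1 and 2. The part of these samples in the medians was not tested.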
